A study of Mus musculus with 2 samples.

Results

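Tenascins, periostin and small leucine-rich proteoglycans are secreted proteins that sit on and between collagen fibrils, and 10 of the 32285 genes in the files were followed here by their symbols. They were the tenascin genes Tnn, Tnc and Tnxb, the periostin gene Postn, and the proteoglycan genes Dcn, Bgn, Aspn, Lum, Fmod and Omd. Their unique molecular identifiers (UMIs, 1 per captured RNA molecule) were counted in cells with at least 800 detected genes from a pair of droplet libraries made from the gingiva of the mouse palate. The genes were chosen by symbol after their UMI counts per cell in fibroblasts, other cells and both libraries had been seen, so every level below is a description.

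Both libraries came from female C57Bl6/J mice (strain given as C57BL/6) aged 8-12 weeks, with no genetic change given. The palate received 3 µl of a ligand at 1 µg/ml under an oral appliance for 1 h, and the gingiva was collected 4 days later. The ligand was a TLR9 ligand (CpG ODN, a synthetic DNA) in one group and a TLR2/4 ligand (LPS, a bacterial cell wall product) in the other. Cells of 4 mice were released with collagenase II and then trypsin and pooled into 1 library per ligand, so animals cannot be told apart, no ligand effect could be tested, and intervals below cover counting error only.

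After filtering, 4888 CpG ODN cells (median 11077.5 UMIs) and 1277 LPS cells (median 22680 UMIs) remained. Cells were clustered without the 10 genes, and the cluster that met all 10 fibroblast markers (Col1a1, Col1a2, Col3a1, Pdgfra and others) was called fibroblast-like. It held 238 CpG ODN cells (4.87%, exact binomial 95% interval 4.28 to 5.51%) and 55 LPS cells (4.31%, 3.26 to 5.57%), with medians of 4084.5 and 8766 UMIs. The libraries shared 5 barcodes in all, 1 among the kept cells and 0 among the fibroblast-like cells. A pair of sub-clusters stood apart from the label. A sub-cluster of 14 cells led by Lgals7, Mt4 and Krt14 had a median of 17038 UMIs and 2.59% keratin UMIs, and 11 cells led by Cytl1, Chad and Acan carried cartilage genes. Without the cells with at least 1% keratin UMIs, or without the cartilage-led cells, Tnc (CpG ODN over LPS 2.35 and 2.20) and Fmod (0.419 and 0.403) still differed by 2-fold between libraries.

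Tenascins are large multimodular glycoproteins that change how cells attach to matrix, and periostin links collagen, fibronectin and tenascin-C through its fasciclin domains. Small leucine-rich proteoglycans are curved proteins that bind collagen and limit fibril width. Decorin and biglycan carry chondroitin or dermatan sulfate chains, lumican, fibromodulin and osteomodulin carry keratan sulfate, and asporin carries an acidic stretch instead of such chains. In gingiva and periodontal ligament these proteins order the collagen that anchors the tooth and the palate lining.

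In the CpG ODN library, Tnn and Tnc were mostly found in other fibroblast-like cells than Tnxb, and the neighbours Aspn and Omd were often detected in the same cells. The sequences from 250 bases before to 50 bases after the transcription start of these 5 genes are therefore shown, from RefSeq (build GRCm38.p6), where 8 of the 10 genes had an entry. Each runs 5′ to 3′ along the gene, and capitals mark the letters TATAAA (the TBP site of core promoters), TGANTCA (AP-1 motif), CTTTGA (the LEF1 motif) and GGGCGG (GC box) on either strand.
Tnn (chr1:160153526-160153825, - strand): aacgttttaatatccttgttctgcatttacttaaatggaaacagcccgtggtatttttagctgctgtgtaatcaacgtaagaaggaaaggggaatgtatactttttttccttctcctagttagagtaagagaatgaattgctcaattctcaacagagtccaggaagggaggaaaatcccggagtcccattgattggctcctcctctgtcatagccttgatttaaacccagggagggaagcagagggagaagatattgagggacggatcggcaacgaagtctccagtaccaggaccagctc
Tnc (chr4:64046966-64047265, - strand): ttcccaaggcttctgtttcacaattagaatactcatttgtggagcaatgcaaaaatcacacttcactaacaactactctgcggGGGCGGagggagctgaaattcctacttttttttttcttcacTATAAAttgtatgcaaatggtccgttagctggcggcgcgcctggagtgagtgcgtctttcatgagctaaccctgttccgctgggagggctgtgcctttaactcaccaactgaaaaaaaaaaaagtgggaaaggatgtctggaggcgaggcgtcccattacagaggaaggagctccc
Tnxb (chr17:34670285-34670584, + strand): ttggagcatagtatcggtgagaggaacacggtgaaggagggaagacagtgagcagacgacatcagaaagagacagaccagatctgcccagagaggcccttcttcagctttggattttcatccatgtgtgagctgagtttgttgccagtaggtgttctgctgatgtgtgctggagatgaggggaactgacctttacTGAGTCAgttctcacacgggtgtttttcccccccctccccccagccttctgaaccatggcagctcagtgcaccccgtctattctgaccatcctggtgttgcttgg
Omd (chr13:49582212-49582511, + strand): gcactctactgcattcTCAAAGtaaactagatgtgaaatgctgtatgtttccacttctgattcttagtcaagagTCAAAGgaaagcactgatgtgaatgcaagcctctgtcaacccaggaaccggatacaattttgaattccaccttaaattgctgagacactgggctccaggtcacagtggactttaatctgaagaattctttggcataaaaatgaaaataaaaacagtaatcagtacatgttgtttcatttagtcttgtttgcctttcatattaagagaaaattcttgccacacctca
Aspn (chr13:49544193-49544492, + strand): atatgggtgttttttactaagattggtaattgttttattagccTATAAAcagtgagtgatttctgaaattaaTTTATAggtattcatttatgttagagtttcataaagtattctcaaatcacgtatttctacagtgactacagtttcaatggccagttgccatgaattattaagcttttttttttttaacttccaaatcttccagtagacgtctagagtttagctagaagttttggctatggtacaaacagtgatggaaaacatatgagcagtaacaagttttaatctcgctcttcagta

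The Tnn window held none of the 4 motifs, while Tnn and Tnc were detected in the same cells. Tnc held GGGCGG at position -167 and TATAAA at -126 from the start, and Tnxb held TGANTCA at -55. Omd held CTTTGA on the reverse strand at -234 and -176, and Aspn held TATAAA at -207 and, on the reverse strand, at -178. TATAAA lay in 3 of the 8 windows (Tnc, Postn and Aspn) and in 13.6% of all 32851 RefSeq windows, and TGANTCA in 1 of 8 and 7.81%. CTTTGA lay in 2 of 8 (Omd and Bgn) and 16.0%, and GGGCGG in 2 of 8 (Tnc and Bgn) and 35.7%. None of the capitalised matches overlapped another, whereas those of Bgn at -10 and -6 did. A match is only a run of letters.

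Fibroblast-like cells held most of the UMIs of every gene but Tnc. CPM, the UMIs of a gene per 1000000 UMIs of the summed cells and, as tags of the 3′ end, not divided by gene length, put the fibroblast-like cells at least 10-fold above all other cells for 10 of the 10 genes in the CpG ODN library and for 9 of 10 in the LPS library. The same held for 15.6% of the genes tested in the CpG ODN library and 18.8% in the LPS library. Lum, Omd and Tnn were the most restricted, with 97.2%, 97.5% and 93.6% of their UMIs in these cells in the CpG ODN library and 99.2%, 96.8% and 98.8% in the LPS library. Tnc was the exception, with 21.3% (exact binomial 95% interval 19.1 to 23.6%) after CpG ODN and 8.44% (6.42 to 10.8%) after LPS.

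**Figure D1:**
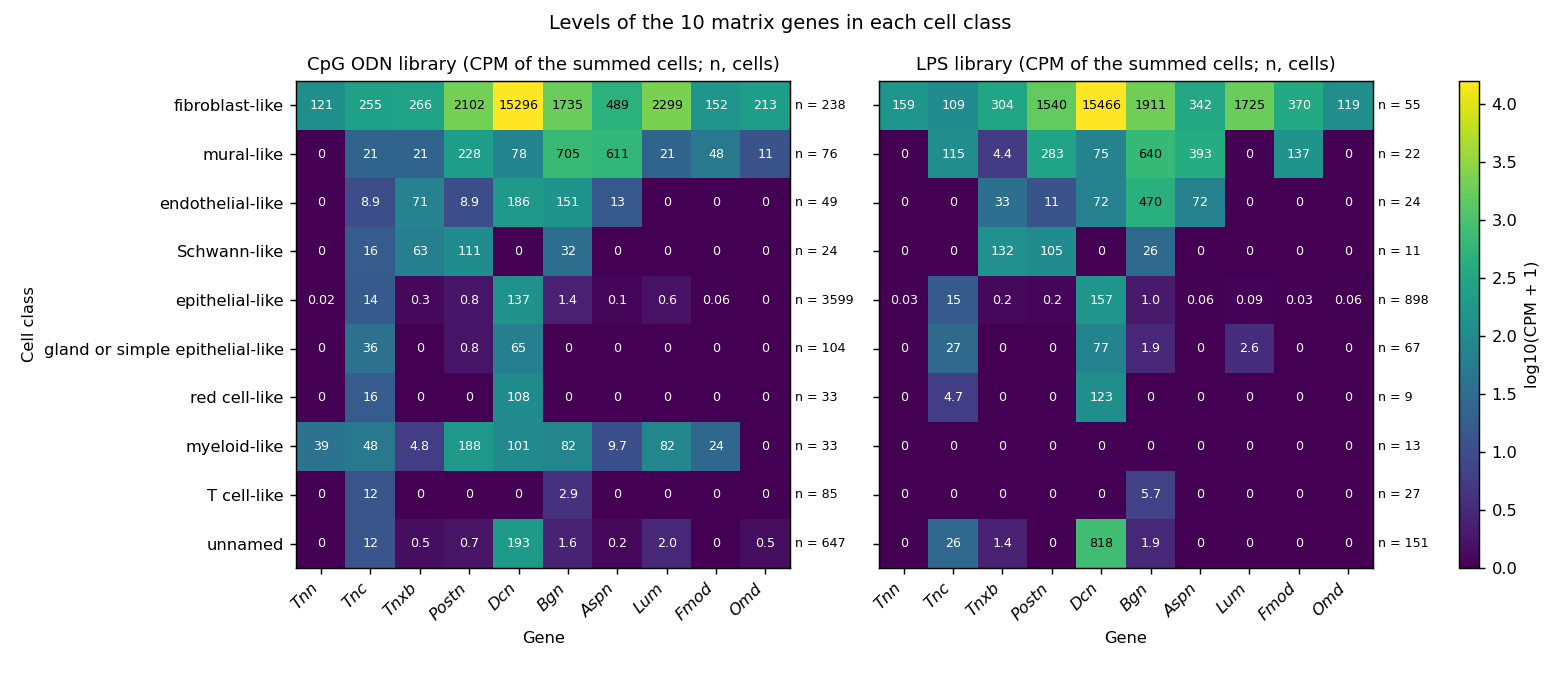
CPM of each gene (columns) in the summed cells of each class (rows) of the CpG ODN library (left) and the LPS library (right), printed in each field and coloured as log10(CPM + 1), with n the number of cells. Dcn reached 15296 and 15466 CPM in fibroblast-like cells, and Dcn and Tnc were the only ones of the 10 above 10 CPM in epithelial-like cells.

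Tnn encodes tenascin-N, also called tenascin-W, a tenascin of bone and dense connective tissue (chr1:160085029-160153580, minus strand, GRCm38). It stood at 121 CPM (exact Poisson 95% interval 101 to 143) in CpG ODN fibroblast-like cells and 159 CPM (126 to 198) in LPS ones. These UMIs came from 33 of 238 and 3 of 55 cells, and 1 LPS cell held 36 of that library's 80 UMIs. Outside fibroblast-like cells, Tnn had 9 UMIs after CpG ODN, 8 of them in 1 myeloid-like cell, and 1 UMI after LPS.

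Tnc encodes tenascin-C, which appears where tissue is remodelled (chr4:63959785-64047015, minus strand, overlapping 8030451A03Rik on the other strand). In fibroblast-like cells it reached 255 CPM (226 to 287) after CpG ODN and 109 CPM (82.3 to 142) after LPS, in 43 and 6 cells. Epithelial-like cells stood far lower, at 14.5 and 14.7 CPM, yet with 3599 and 898 cells they held 68.7% and 72.4% of all Tnc UMIs.

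Tnxb encodes tenascin-X, which lies along collagen fibrils and whose loss gives lax skin and joints (chr17:34670535-34719815, plus strand). It was spread over more cells than the other tenascins, 110 of 238 at 266 CPM (236 to 298) after CpG ODN and 26 of 55 at 304 CPM (258 to 356) after LPS. Endothelial-like cells (71.0 and 33.2 CPM) and Schwann-like cells (63.2 and 132 CPM) also held Tnxb UMIs, though the 5 Schwann-like UMIs after LPS lay in 1 cell.

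Postn (chr3:54361109-54391037, plus strand) stood at 2102 CPM (2017 to 2190) in CpG ODN fibroblast-like cells and 1540 CPM (1433 to 1652) in LPS ones, in 182 and 32 cells. Its highest level elsewhere was in 17 mural-like cells led by Cnn1, Acta2 and Myh11, smooth muscle genes, with 1352 CPM (1029 to 1744) in 11 CpG ODN cells and 1006 CPM (764 to 1301) in 6 LPS cells. These cells held 0 Col1a1 and 0 Col3a1 UMIs but 3277 and 3608 CPM of Krt14, a basal keratin, so that their name, which rests on 4 contractile or mural markers, is in doubt. Tnc was detected there as well, at 160 CPM (7 UMIs) and 451 CPM (26 UMIs, all 6 cells), which were all of the Tnc UMIs of LPS mural-like cells. The larger mural-like cluster, also led by smooth muscle genes (Acta2, Myh11 and Myl9) and with Rgs5 among its markers, had Postn at 78.9 CPM after CpG ODN.

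Dcn encodes decorin (chr10:97479609-97518143, plus strand) and was detected in 228 of 238 and 53 of 55 fibroblast-like cells, at 15296 CPM (15065 to 15530) and 15466 CPM (15125 to 15814). Bgn, for biglycan (chrX:73483602-73495933, plus strand), was nearly as widely detected, in 223 and 54 cells, at 1735 CPM (1658 to 1815) and 1911 CPM (1793 to 2036). The level of Bgn among other classes was highest in mural-like cells (705 and 640 CPM), and endothelial-like cells held 151 and 470 CPM, where 1 LPS cell carried 77.6% of the count.

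Aspn encodes asporin (chr13:49544443-49567565, plus strand, inside Cenpp on the other strand) and is known as a regulator of mineralisation in the periodontal ligament. Its level was as high in mural-like as in fibroblast-like cells in both libraries. Fibroblast-like cells had 489 CPM (448 to 532) and 342 CPM (293 to 397), and mural-like cells 611 CPM (534 to 696) and 393 CPM (316 to 484). All of the mural-like UMIs lay in the larger mural-like cluster, in 59 of 65 CpG ODN and 15 of 16 LPS cells. The level there was 692 CPM (605 to 788) and 527 CPM (424 to 649). That cluster held 29.3% and 32.2% of all Aspn UMIs.

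Lum, Fmod and Omd encode lumican, fibromodulin and osteomodulin, the keratan sulfate proteoglycans of the group. Lum (chr10:97565128-97572703, next to Dcn on the same strand) stood at 2299 CPM (2211 to 2391) and 1725 CPM (1612 to 1843) in fibroblast-like cells. Fmod (chr1:134037254-134048277, plus strand) stood at 152 CPM (129 to 177) and 370 CPM (318 to 427), in 34 and 18 cells, with 24.2% of the LPS count in 1 cell. Omd (chr13:49582462-49592822, next to Aspn and also inside Cenpp) stood at 213 CPM (186 to 242) and 119 CPM (91.0 to 153). Mural-like cells held Fmod at 48.3 and 137 CPM and Omd at 10.7 and 0 CPM.

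Decorin transcripts were also found in keratinocyte clusters, at levels above those of T cell-like and Ighd-expressing cells. The epithelial-like cluster led by Pappa, Hpgd and Large2, which carried the basal genes Col17a1 and Krt14, had Dcn at 940 CPM (910 to 971) in 417 CpG ODN cells and 1093 CPM (1046 to 1141) in 113 LPS cells. A cluster led by H19, Cpn1 and Mt3, which met only 2 epithelial markers and stayed unnamed, had 589 CPM (547 to 634) and 945 CPM (901 to 990). Dcn stood at 393 and 435 CPM in the cluster led by Pappa, Col17a1 and Wnt10a, at 364 and 578 CPM in the dividing cluster led by Anln, Pbk and Aspm, and at 13.9 and 4.98 CPM in the cornifying cluster led by Serpinb3a, Flg and Defb4.

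Dcn was also counted in lymphocyte and red cell-like clusters. The part of free RNA in these levels was not tested. T cell-like cells had Dcn in 0 of 85 CpG ODN cells, with an exact upper limit of 4.25%, and in 0 of 27 LPS cells (12.8%), at medians of 2834 and 5092 UMIs. In the cluster led by Ighd, which carried B cell markers, Dcn was found in 1 of 283 and 1 of 69 cells (median depth 2149 and 3157 UMIs). A B cell-marked cluster led by Jchain, Ighg2b, Rgs13 and histone genes held more, 29.2 CPM (20.4 to 40.4) in 5 of 101 CpG ODN cells and 0 UMIs in 4 LPS cells, and the other Jchain-led cluster had 1 UMI in 137 CpG ODN cells. Red cell-like cells, which also carried Krt15, held 108 and 123 CPM. With every cell thinned to 1500 UMIs, that is, the share expected had each cell been sampled to that depth, 47.9% and 52.4% of the Pappa, Hpgd and Large2 cells had Dcn. Unthinned, the shares were 68.8% and 75.2%, at medians of 8767 and 16138 UMIs.

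The ratio of Dcn to other fibroblast transcripts also differed. The Pappa, Hpgd and Large2 cluster held 3589 Dcn UMIs beside 1 Lum and 4 Col1a1 UMIs after CpG ODN and 2066 beside 0 and 1 after LPS. Fibroblast-like cells held 16743 Dcn UMIs beside 2517 Lum and 7587 Col1a1 UMIs after CpG ODN, and 7784 beside 868 and 2532 after LPS. The 3 genes thus stood in different ratios in the keratinocyte and the fibroblast-like cells of the same library.

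Tnc was high in many of the same clusters. It was highest in the same Pappa, Hpgd and Large2 cluster, at 99.3 CPM (89.5 to 110) and 99.4 CPM (85.7 to 115), against 51.2 and 55.4 CPM in the Pappa, Col17a1 and Wnt10a cluster. A dividing cluster led by Anln, Pbk and Aspm had 33.3 and 60.5 CPM, and the gland-like cluster led by Ltf, Wfdc18 and Reg3g had 45.7 and 35.9 CPM. One cluster went the other way, with Tnc at 25.3 and 26.3 CPM (6 and 16 UMIs) beside 0 and 1 UMI of Dcn, and it was led by BC037156, Sprr2d and Odam, the last a gene of the epithelium attached to the tooth. T cell-like cells held 4 Tnc UMIs after CpG ODN, 11.7 CPM (3.20 to 30.0), and 0 after LPS, so that only the higher of these epithelial levels lay above that interval. Across all epithelial-like cells, 355 of the 566 Tnc-positive CpG ODN cells and 125 of the 192 LPS ones also had Dcn. Thinned, Dcn and Tnc met 3.25 and 2.64 times as often as the product of their shares, and 1.17 and 1.04 times within the Pappa, Hpgd and Large2 cluster.

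**Figure D2:**
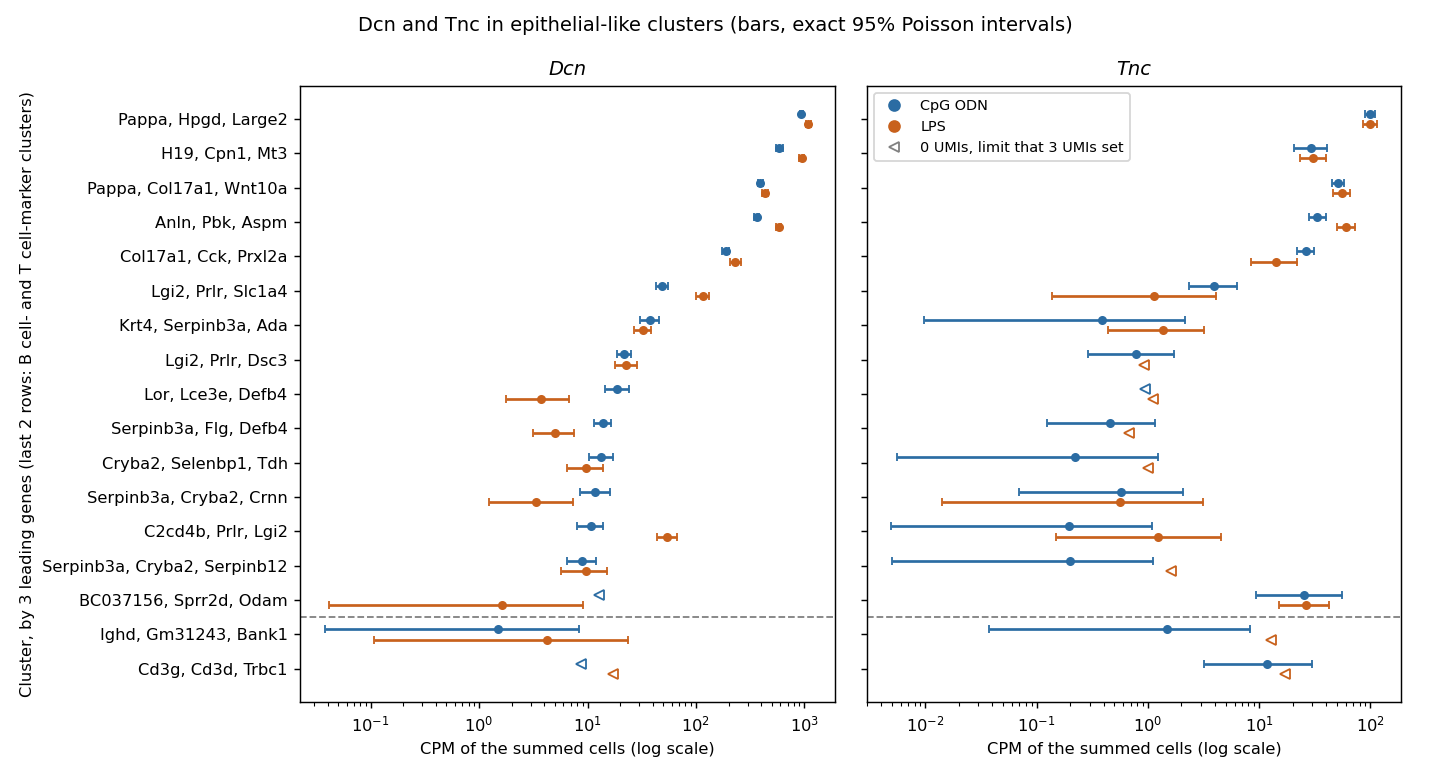
CPM of Dcn (left) and Tnc (right), on a log scale, in each epithelial-like cluster and the H19-led one, named by 3 leading genes and ordered by Dcn after CpG ODN, with the Ighd-led and T cell-like clusters below the dashed line. Points are libraries, bars exact Poisson intervals, and open triangles the limit that 3 UMIs set where none was counted. Dcn was highest in the Pappa, Hpgd and Large2 cluster (940 and 1093 CPM), against 1.48 and 4.22 CPM in the Ighd-led one.

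Within fibroblast-like cells, most of the genes were far from evenly spread. The variance of the UMIs over their mean, at 1500 UMIs a cell, is near 1 for a gene that differs between cells by sampling alone. It reached at least 2 for 8 of the 10 genes after CpG ODN, against 8.5% of the 2248 genes tested, and for 8 of 10 after LPS, against 8.93% of 2251, with 7 genes in both. Tnxb stayed lower, at 1.41 and 1.67, and Bgn (1.997 and 2.64) and Omd (4.17 and 1.63) passed in 1 library each. The genes tested were not matched for level, on which the ratio depends.

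Dcn had the highest ratio, 12.7 and 14.8, with a median of 169 and 176 UMIs per 10000 and a highest cell of 584 and 623. It also had the highest thinned mean, 26.0 and 26.5 UMIs a cell. The ratio depends on level, so its order among the genes is not an order of unevenness. The 24 richest of the 238 CpG ODN cells held only 26.8% of Dcn UMIs, among the lowest of these shares. Aspn had 7.53 after CpG ODN, where the top cell held 13.6% of its UMIs, and 2.13 after LPS. Without the cell richest in each gene, the Aspn value after CpG ODN was 4.05. Tnn and Tnc had 2.76 and 4.27 after CpG ODN, and the 24 richest of the 238 cells held 92.4% of Tnn UMIs and 83.9% of Tnc UMIs.

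The share of cells with a UMI also differed widely. At 1500 UMIs a cell, Dcn was found in 93.7% and 94.4% of the fibroblast-like cells, Bgn in 82.8% and 81.5%, Lum in 81.0% and 67.0% and Postn in 66.9% and 48.9%. Tnxb (28.3% and 26.1%) and Aspn (28.5% and 30.6%) were found in fewer, and Omd (15.9% in both libraries), Tnc (14.7% and 8.23%), Fmod (10.4% and 21.2%) and Tnn (9.93% and 5.41%) in the fewest. For each gene, its 24 richest CpG ODN cells held 91.6% of Fmod UMIs, 77.7% of Omd UMIs and 68.8% of Aspn UMIs, beside 26.8% of Dcn and 26.1% of Bgn UMIs.

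The genes parted into sets of cells. The fibroblast-like cells were split into 12 sub-clusters, made without the 10 genes. Tenascin-X was highest in those led by Cxcl9 and Cxcl10, by Has1 and Cxcl1 and by Krt79 and Lpl. Osteomodulin and asporin were high in those led by Gpx3 and Col11a1 or by Grem1 and Cilp. The tenascins N and C were high in those led by Pcp4, Crabp1 and Gpm6b (32 cells) and by Wnt10a, Pla2g7 and Apcdd1 (11 cells). Crabp1, Apcdd1, Wif1 and 3 other genes of fibroblasts just under an epithelium summed to 5268 CPM in the Pcp4-led cells. Their sum was 10735 CPM in the Wnt10a-led cells, against at most 2894 CPM elsewhere. Crabp1 was a leading gene of the Pcp4-led cells and Apcdd1 of the Wnt10a-led ones, so the sums are no separate sign of place. The Pcp4-led cells also had the highest sum of 6 ligament or tendon genes, Tnmd among them, at 3111 CPM. The Wnt10a-led cells had 1863 CPM of them.

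In the Pcp4, Crabp1 and Gpm6b sub-cluster, Tnc stood at 1374 CPM (1190 to 1578) in both libraries together, with 59.9% of fibroblast-like Tnc UMIs, and Tnn at 776 CPM (640 to 933) with 53.3%. In the Wnt10a, Pla2g7 and Apcdd1 sub-cluster, Tnn stood at 1762 CPM and Tnc at 2025 CPM, in 10 of 11 cells each. Tnxb had 0 UMIs in the first of them and 8 in the second. Dcn was low in both, at 7774 and 2208 CPM. The Tnn levels differed between the libraries. In the Pcp4-led cells Tnn stood at 577 CPM (455 to 721) in 31 CpG ODN cells and 2976 CPM (2085 to 4121) in 1 LPS cell. In the Wnt10a-led cells Tnn stood at 1192 CPM (863 to 1605) in 9 CpG ODN cells and 3310 CPM (2405 to 4443) in 2 LPS cells.

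Tnxb was highest in the sub-clusters led by Cxcl9, Cxcl10 and Il6 (744 CPM, 565 to 961), by Has1, Cxcl1 and Ccl7 (685 CPM, 596 to 784) and by Krt79, Lpl and Ccl11 (529 CPM, 411 to 671). Those 3 sub-clusters held 0 UMIs of Tnn and 0 of Tnc, as did the Cxcl14-led cells, where Tnxb stood at 130 CPM. The Krt79, Lpl and Ccl11 cells had the highest Dcn (26926 CPM) and Lum (5988 CPM), with Lum 3.36 times as high as in the other fibroblast-like cells. Their summed CPM of 6 adventitial genes (Pi16, Dpp4, Cd34, Ly6a, Ly6c1 and Clec3b) was 7366. That of the Has1, Cxcl1 and Ccl7 cells was 6965 and that of the Cxcl9-led cells 6167. The Pcp4, Crabp1 and Gpm6b cells had the lowest sum, 618 CPM. High sums were not particular to cells rich in Tnxb. The cells led by Pcsk2, Gfap and Dio3 and the Gpx3-led cells summed to 5049 and 4429 CPM, with Tnxb at 97.9 and 204 CPM.

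Postn, Aspn and Omd were highest in 12 CpG ODN cells led by Grem1, Cilp and C1qtnf3, of which the LPS library had 0. Aspn reached 3745 CPM (3258 to 4285) there, 11.7 times its level in the other fibroblast-like cells, Omd 1201 CPM (933 to 1523), 8.23 times, and Postn 6024 CPM (5402 to 6699), 3.39 times. The next highest Postn level, 4112 CPM, was in the cells led by Pcsk2, Gfap and Dio3. Fmod had 0 UMIs in the Grem1-led cells. The Grem1-led cells summed 1502 CPM of 6 bone genes (Runx2 and Alpl among them), against 558 in the next sub-cluster. They also summed 2420 CPM of 6 ligament or tendon genes, their leading gene Cilp among them, beside 3111 CPM in the Pcp4-led cells.

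Fmod stood at 1137 CPM (915 to 1398) in the cartilage-led cells, in 9 of 11 cells. The Wnt10a-led cells had 1175 CPM, but 45 of those 58 UMIs lay in 1 LPS cell and the 9 CpG ODN cells stood at 360 CPM. The Gpx3, Col11a1 and Mfap4 sub-cluster, with the elastic fibre genes Eln and Mfap4, held 27.3% of its UMIs (595 CPM) and 27.6% of those of Omd (502 CPM). The cartilage-led cells also had Aspn at 1188 CPM but Lum at 227 CPM and Postn at 126 CPM. Bgn varied least of the 10 across the sub-clusters outside the keratin-led cells, from 898 CPM in the Cxcl9-led to 3625 CPM in the Wnt10a-led cells.

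**Figure D3:**
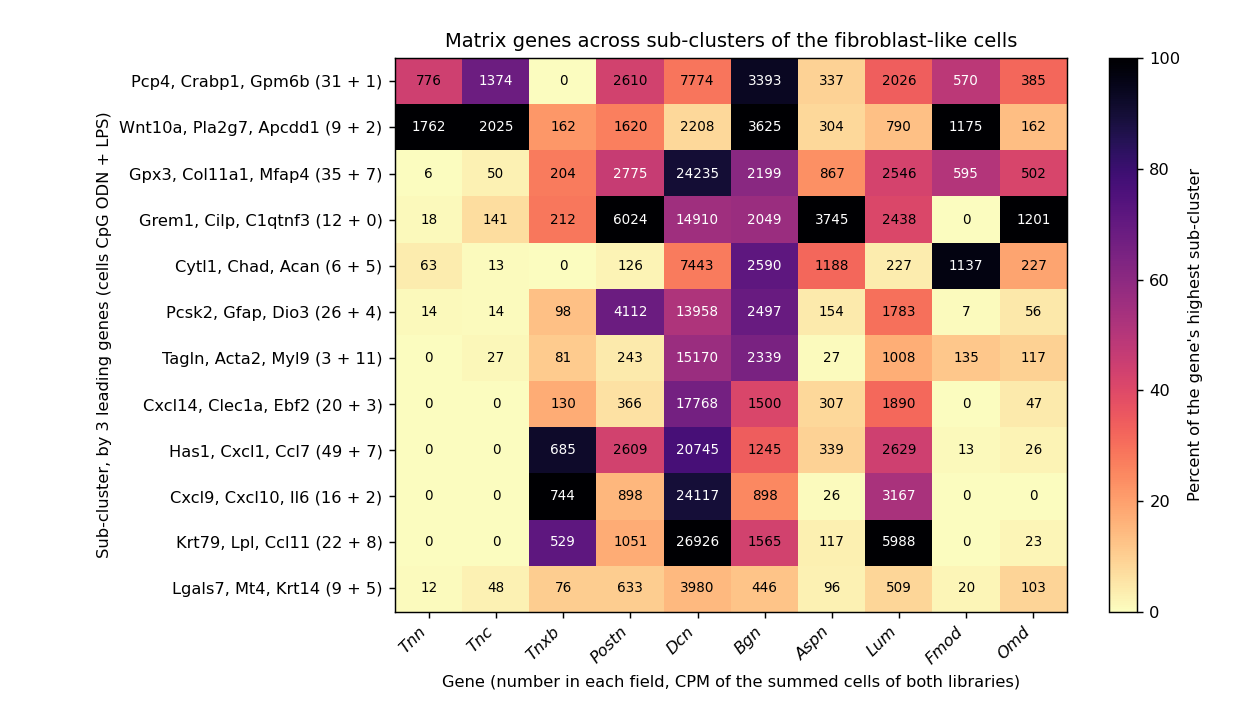
CPM of each gene (columns, printed) in the summed cells of each fibroblast-like sub-cluster (rows, by 3 leading genes, with CpG ODN and LPS cell numbers), coloured as a percentage of the highest sub-cluster of that gene. Tnn and Tnc share the upper 2 rows, where Tnxb had 0 and 162 CPM, and Aspn, Omd and Postn peak in the Grem1-led cells.

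Detection in single cells was compared for each pair. Of 45 pairs, 4 were found together at least 2 times as often as the product of their shares in both libraries, at 1500 UMIs a cell, namely Tnn with Tnc, Tnn with Fmod, Tnc with Fmod and Omd with Fmod. Among all 6377806 pairs of the 3572 genes found in at least 5% of the cells of both libraries at that depth, 0.0266% did so. Those pairs were not matched for detection, and genes found in most cells cannot reach 2 times the product. Of the 4 pairs, those among Tnn, Tnc and Fmod share genes, so they are not separate observations. After LPS they rest on few cells, as Tnn was found in 3 and Tnc in 6 of the 55 cells. One pair, Tnxb with Fmod, was found together at most 0.5 times as often in both libraries, against 0.293% of all pairs. The members had been chosen knowing their spread in these cells, so the count is a description.

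Tnn and Tnc met in 28 of the 33 Tnn-positive cells after CpG ODN, 4.98 times the product, and in all 3 after LPS, 11.4 times. Tnc and Tnxb met in 1 cell of 43 Tnc-positive and 110 Tnxb-positive cells after CpG ODN, 0.039 times the product. After LPS they met in 1 cell of 6 and 26, 0.707 times. Tnn and Tnxb met in 2 cells after CpG ODN (0.097 times) and in 1 of the 3 Tnn-positive cells after LPS (1.07 times), so that the separation from Tnxb was seen in the CpG ODN library only. Tnxb and Fmod met in 3 cells after CpG ODN (0.118 times) and 2 after LPS (0.164 times). Tnxb with Omd lay just outside the limit after LPS, with 16 cells (0.441 times) and 9 cells (0.515 times).

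Omd and Aspn, side by side in the genome, met in 45 of 63 Omd-positive cells after CpG ODN (2.05 times) and 13 of 23 after LPS (1.71 times). Dcn and Lum, also adjacent, were in most cells, where the ratio has little room to depart from 1 (1.04 and 1.01). By level each ranked the other first, with a Pearson r of 0.50 over the 238 CpG ODN and 0.50 over the 55 LPS cells on ln(1 + UMIs per 10000).

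**Figure D4:**
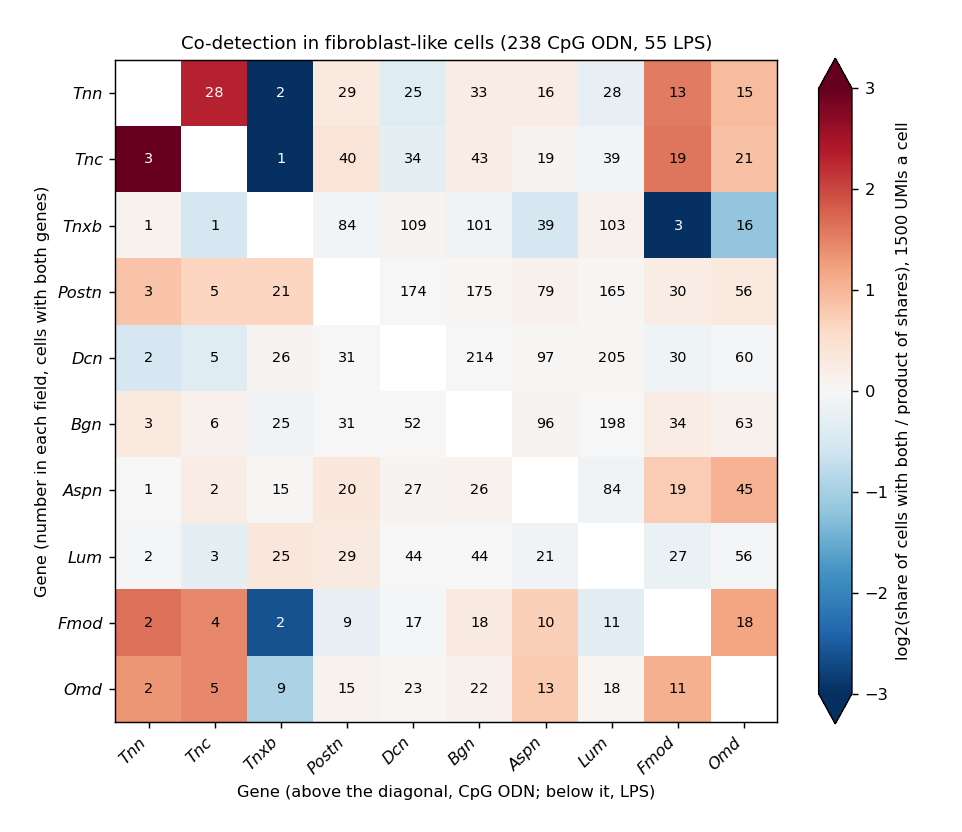
Co-detection of each pair of genes in the fibroblast-like cells of the CpG ODN library (above the diagonal) and the LPS library (below), coloured as log2 of the share of cells with both over the product of shares at 1500 UMIs a cell, with the number of cells that had both printed. Tnn with Tnc (28 and 3 cells) is darkest red in each library, and Tnxb is dark blue with Tnc, Tnn and Fmod after CpG ODN and with Fmod after LPS, and paler blue with Omd in both.

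Likeness by level was then ranked for the 7 genes detected in at least 20% of the fibroblast-like cells of both libraries, among 2569 genes, by the smaller r of the 2 libraries. The cells compared share a library and a dissociation. Tnxb was most like Clec3b, Ly6a and Cd34 (0.58, 0.55 and 0.51), and Postn was most like the fibril collagens Col1a1, Col3a1 and Col1a2 (0.56, 0.49 and 0.48). Lum ranked Dcn, Col3a1 and Igfbp4, Dcn ranked Lum, Gsn and Mgp, and Bgn ranked Igfbp7, Sparc and Ecrg4. Omd was most like Col11a1, Col12a1 and Thbs2 (0.44, 0.36 and 0.35), and Aspn was most like Omd (0.33).

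Between the ligands, Tnc stood higher after CpG ODN and Fmod higher after LPS, and the other 8 genes differed by less than 2-fold. Past 2-fold was 1 of 10 genes higher after CpG ODN, against 4.87% of the 7821 genes with at least 20 UMIs in fibroblast-like cells, and 1 of 10 higher after LPS, against 3.66%. Either way, 2 of 10 stood beside 8.53% of all genes, and the median log2 ratio of the 10 was 0.20 beside 0.00 for all. With 10 genes and 1 library per ligand, nothing was read from these shares.

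The 279 CpG ODN and 55 LPS UMIs of Tnc gave a CPM ratio of CpG ODN to LPS of 2.33 (1.74 to 3.17, exact conditional interval). The Pcp4-led and Wnt10a-led sub-clusters, where Tnc was high, made up 13.0% and 3.78% of the CpG ODN fibroblast-like cells and 1.82% and 3.64% of the LPS ones, 1 and 2 cells. Within them the levels stood close together, 1378 CPM (1186 to 1592) and 1323 CPM (756 to 2148) in the first, and 1996 CPM (1561 to 2513) and 2106 CPM (1399 to 3044) in the second. In epithelial-like cells Tnc was 1.02 times as high after LPS (0.907 to 1.14). Mural-like cells went the other way from the fibroblast-like ones. Their Tnc was 5.35 times as high after LPS (2.35 to 13.7), on 8 CpG ODN and 26 LPS UMIs.

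Fmod, with 166 and 186 UMIs, was 2.44 times as high after LPS (CpG ODN over LPS 0.410, 0.331 to 0.509). One LPS cell of the Wnt10a-led sub-cluster held 45 of the 186 UMIs, and without the richest cell of each library the ratio was 0.488. In the Gpx3-led cells Fmod stood at 485 CPM (368 to 627) and 908 CPM (642 to 1246), and in the cartilage-led cells, 2.52% of CpG ODN and 9.09% of LPS fibroblast-like cells, at 1094 CPM (782 to 1490) and 1174 CPM (872 to 1548). Without those cells the ratio was 0.403. Mural-like cells, where 1 LPS cell held 74.2% of the count, were also higher after LPS, 2.84 times (1.54 to 5.39).

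Omd (1.79, 1.34 to 2.41), Aspn (1.43, 1.20 to 1.71), Postn (1.37, 1.26 to 1.48) and Lum (1.33, 1.23 to 1.44) were higher after CpG ODN by more than the counting error. Bgn was lower (0.908, 0.839 to 0.982), and Tnn (0.759, 0.570 to 1.01), Tnxb (0.875, 0.717 to 1.07) and Dcn (0.989, 0.963 to 1.02) had intervals that held 1. Tnn turned to 1.21 without its richest cell in each library. The Grem1-led cells, absent from the LPS library, were 5.04% of the CpG ODN fibroblast-like cells, and an Acta2-led sub-cluster was 1.26% after CpG ODN and 20% after LPS. Summed over the fibroblast-like cells, ligament and tendon genes stood at 1052 and 431 CPM, bone genes at 259 and 19.9 CPM and contractile genes at 95.9 and 1168 CPM. Their part in the ratios was not tested. Without the cartilage-led cells the Aspn ratio was 1.81.

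Levels within single sub-clusters, where both libraries had cells, were set beside the pooled ratios. Postn, higher after CpG ODN over all fibroblast-like cells, was lower in the Has1-led cells (1991 CPM, 1811 to 2184, in 49 CpG ODN cells and 4289 CPM, 3855 to 4758, in 7 LPS cells). It was also lower in the Pcsk2-led cells (3666 and 5808 CPM, 26 and 4 cells). The Gpx3-led cells went the other way, with Postn at 3204 CPM (2891 to 3541) after CpG ODN and 1552 CPM (1198 to 1979) after LPS, as did the keratin-led cells (813 and 311 CPM). Omd stood at 468 CPM (354 to 608) and 597 CPM (386 to 881) in the Gpx3-led cells, with intervals that overlapped.

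Aspn in the Gpx3-led cells stood at 795 CPM (643 to 971) and 1075 CPM (784 to 1438). Lum in the Krt79-led cells stood at 5963 CPM (5410 to 6556) and 6020 CPM (5399 to 6693), and in the Has1-led cells at 2933 and 1802 CPM. Tnxb in the Has1-led cells stood at 611 CPM (513 to 721) and 889 CPM (698 to 1116). The LPS cells in each of these sub-clusters numbered at most 8, and the difference between pooled and within-sub-cluster ratios was not tested.

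**Figure D5:**
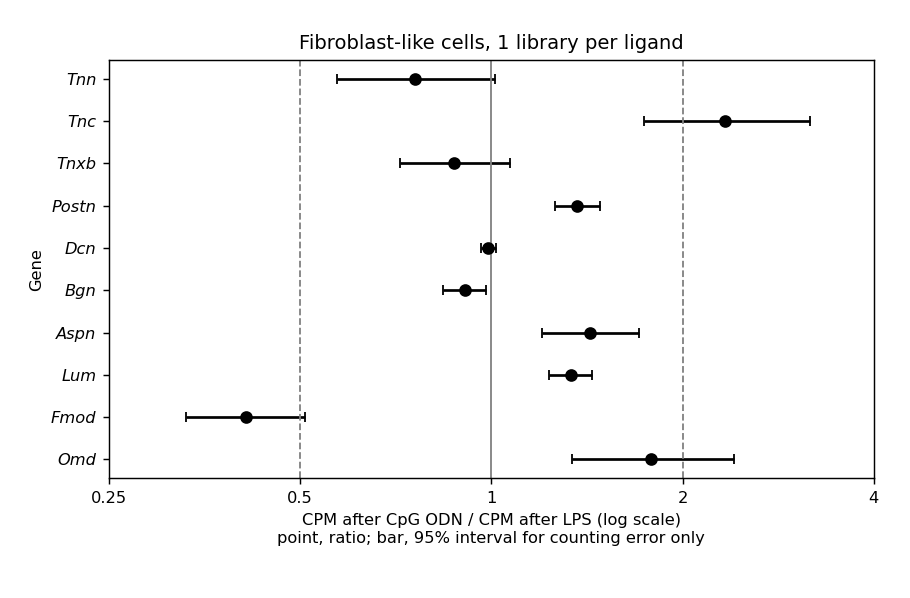
Ratio of CPM after CpG ODN to CPM after LPS in fibroblast-like cells for each gene, on a log scale, with bars for the exact 95% interval of counting error, a solid line at 1 and dashed lines at 0.5 and 2. Tnc (2.33) lies beyond the upper and Fmod (0.410) beyond the lower dashed line, and each library is a single pool of 4 mice.

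Partner genes of the 10 were then counted in the fibroblast-like cells. Of the other leucine-rich proteoglycan genes, 12 in all, 6 had at least 20 UMIs, all 6 were at least 10-fold over other cells in both libraries (15.6% and 18.8% of all genes tested), and 1 passed 2-fold between ligands (8.53% of all). Ogn (osteoglycin, 236 and 443 CPM), Prelp (279 and 312 CPM), Chad (chondroadherin, 84.0 and 360 CPM) and Ecm2 (125 and 123 CPM) were the highest of them. Chad, a cartilage gene, was the one past 2-fold, 0.234 (0.1798 to 0.302), and it is a leading gene of the cartilage-led cells.

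None of the 7 fibril collagen genes passed 2-fold, with a median log2 ratio of 0.40, beside the 8.53% of all genes. Col3a1 stood at 10396 and 6583 CPM, Col1a2 at 7598 and 5122, Col1a1 at 6931 and 5031 and Col5a2 at 759 and 660. The fibril assembly and crosslinking genes, 9 in all, had 0 past 2-fold, with Fn1 (fibronectin) at 2105 and 2045 CPM, Pcolce2 at 491 and 682, Pcolce at 378 and 407, and Ctsk (cathepsin K, which degrades collagen) at 445 and 334.

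Enzymes that build the sugar chains were sparse. Of 18 glycosaminoglycan genes, 13 had at least 20 UMIs, 1 was past 2-fold towards each ligand (Chsy1 after CpG ODN, with an interval that held 1, and Ust after LPS) and 3 were at least 10-fold over other cells in both libraries. Over all genes, 8.53% passed 2-fold either way, and 15.6% and 18.8% of those tested were 10-fold over other cells, so the 10-fold count is near that share. Chpf was the highest (91.4 and 81.5 CPM), followed by Dse (68.5 and 55.6), which makes dermatan from chondroitin, Chst12 (64.0 and 47.7) and Csgalnact2 (65.8 and 45.7). Of 6 keratan sulfate genes only Chst2 had at least 20 UMIs (42.0 and 47.7 CPM), and the others had at most 10 UMIs in a library.

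Of 15 integrin and receptor genes, 10 had at least 20 UMIs, 1 was past 2-fold towards each ligand (Itgb8 after CpG ODN, with an interval that held 1, and Itga8 after LPS) and 2 were 10-fold over other cells in both libraries, near the 15.6% and 18.8% of all genes tested in each. Sdc4 (375 and 350 CPM), Itgb1 (285 and 296), Itgb5 (163 and 143) and Itgav (80.4 and 81.5) led the list. The TGF-beta ligand genes, 3 in all, none past 2-fold, stood at 149 and 139 CPM (Tgfb2), 82.2 and 67.6 (Tgfb3) and 64.9 and 51.7 (Tgfb1). Tgfbi, the close relative of periostin, stood at 214 and 201 CPM but only 1.95 and 1.88 times above other cells, whereas Postn was 777 and 753 times above them, and Tnr had 1 UMI in each library.

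Markers of other classes were also counted in the fibroblast-like cells. Epithelial markers summed to 5612 and 2470 CPM with 10 of 10 detected, mural markers to 293 and 1113 CPM, cartilage markers to 200 and 183 CPM, and myeloid markers to 8.22 and 354 CPM. Red cell markers summed to 1432 and 1524 CPM with 5 of 5 detected. Over both libraries they were highest in the Pcp4-led (5460 CPM), Krt79-led (5053 CPM) and Gpx3-led cells (4089 CPM). Hbb-bs was a leading gene of the Gpx3-led cells. Myeloid markers stood at 1331.5 CPM in the Krt79-led cells. Endothelial markers summed to 9.14 and 19.9 CPM and T cell markers to 5.48 and 1.99 CPM, with Pecam1 and Cd3e at 0. Their part in the values above was not tested. At the filter itself, barcodes with at least 600 but under 800 detected genes held 439 and 15 UMIs of the 10 genes, and cells with 800 to under 1000 held 1070 and 4.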

How the data were processed

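A pair of 10x single-cell 3′ libraries was analysed, 1 for each ligand. The authors deposited raw UMI counts per gene and barcode, filtered by Cell Ranger (version 4.0.0), without normalization. The genome build they used is not given in the sources used here. The 10 genes and all lists were chosen with earlier results of these data known. Barcodes held 72173148 (CpG ODN) and 38656738 (LPS) UMIs, and 1331 and 739 barcodes below 800 detected genes were left out. Cells were clustered (scanpy 1.11.5, 2000 variable genes, 30 principal components, 15 neighbours, Leiden resolution 1) without the 10 genes, and named from at least 3 markers. Fibroblast-like cells were divided again (1000 variable genes, 10 components, 10 neighbours, resolution 0.8). No doublet caller was run; keratin-rich cells were left out as an alternative.

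UMIs were summed over cells and divided by the total (CPM). Intervals are exact Poisson (CPM), conditional binomial (ratios) and Clopper-Pearson (shares) at 95%, and cover counting error only. Shares and variance/mean at 1500 UMIs were computed from the hypergeometric distribution. Called were a ratio of 2 (genes with at least 20 UMIs), a fold of 10 over other cells (at least 50 UMIs), a variance/mean of 2 (thinned mean at least 0.1), and pairs at 2 or 0.5 times the product (genes in at least 5% of cells). With 1 library a group, no test was made. Named were the 10 genes, the 4 highest genes of each partner list, the 3 most alike genes, and the leading genes of clusters; single genes beyond that rule (such as Krt14, Krt15, Lum in keratinocytes, Chsy1, Ust, Itgb8 and Itga8) were named after their values were seen. The formulas were tested on simulated data. Genes were placed by identifier in GENCODE M21 (GRCm38), and promoter windows came from RefSeq.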

Additional observations from a re-analysis of the deposited data

Results flagged for a closer look

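Barcodes below 800 detected genes were left out of every comparison, and some of the 10 genes were counted there above the 3 UMIs that a count of 0 allows. In the CpG ODN library these were Dcn (391 UMIs), Lum (59), Bgn (35), Postn (26), Aspn (16), Tnxb (8) and Tnc (4). In the LPS library they were Dcn (51 UMIs), Postn (12), Tnxb (6), Lum (6) and Bgn (5). All 10 genes together made 543 UMIs in 1331 such CpG ODN barcodes and 83 in 739 LPS barcodes. With 1 library per ligand, no group was large enough for a search for a sample far from the others.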

How the results depend on the processing

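No paired analysis was possible because there were no replicates to pair, with a single pool of mice for each ligand. The alternatives were a minimum of 200 or 1200 detected genes, cells picked one by one by Col1a1, Leiden resolutions of 0.5 and 2, leaving out cells with at least 1% keratin UMIs, keeping the 10 genes in the clustering, a mean over cells, leaving out the richest cell, thinning to 3000 UMIs, and, chosen after seeing the data, leaving out the cartilage-led cells. No alternative reversed a called direction. In each one run for it, 9 of 10 genes stayed at least 10-fold over other cells in both libraries and 2 of 10 stayed past 2-fold between ligands. Genes with a variance/mean of at least 2 in both libraries numbered 7 to 9, and pairs at 2 times the product 3 to 5, beside 4 as given. Pairs at 0.5 times the product went from 1 to 2 with at least 1200 detected genes, with 3000 UMIs and without the cartilage-led cells. Genes at least 3-fold higher in 1 sub-cluster numbered 7 at a sub-cluster resolution of 0.4 and 8 with each library's mean subtracted, beside 8. The Tnc ratio ranged from 2.12 to 2.84 and the Fmod ratio from 0.369 to 0.488. Among single values, 60 moved and 476 did not, by the interval of a ratio or share and by 1.5 times for a variance/mean or a pair. Tnn, with 3 positive LPS cells, is limited by depth and cell number.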
